A study of Mus musculus with 18 samples.

Results

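Molecular chaperones and heat shock genes were described in splenic B cells of mice with and without Zbtb24 in the B lineage, before and after culture with lipopolysaccharide (LPS), a bacterial cell wall product that activates B cells. The 40 genes were taken by name from the expression table, which holds 16545 genes, and all 40 were found there. They fall into 8 groups by role: 8 subunits of the chaperonin CCT, 4 prefoldin subunits, 6 members of the HSP70 and HSP110 families, 6 J-domain proteins, 3 BAG proteins, 6 HSP90 proteins or HSP90 co-chaperones, 5 chaperones of the mitochondrion and 2 heat shock factors. The 5 mitochondrial proteins (Hspd1, Hspe1, Hspa9, Trap1 and Dnaja3) are therefore not cytosolic, although the set was named for cytosolic chaperones.

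The study sequenced 18 libraries in 6 groups of 3. Control (CON) cells came from Zbtb24+/+ littermates and Zbtb24 B-CKO cells from Zbtb24loxp/loxp mice, both, by the stated genotypes, with 1 copy of a Cre active in the B lineage and on a C57BL/6 background. In the latter, the Cre deletes exon 2 of Zbtb24 in B lineage cells. Total splenic B cells were taken at D0, at D1 (24 h of LPS) or at D2 (48 h of LPS). Each replicate was 1 mouse, and the LPS dose, age and sex of the mice behind these libraries are not given in the sources used here. Levels are in FPKM, a fragment count scaled to transcript length and to the mapped total of the library, so values can be compared between genes per unit of length. The total number of reads per library is not known from FPKM, and low values lay on steps of whole reads in only 29 of 1605 low genes tried, too few to give the depth. FPKM is relative to all the RNA of a library, so fewer cells of a type and less RNA per cell cannot be told apart.

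Chaperones bind unfolded or partly folded proteins and let them reach their native shape. HSP70 proteins work in cycles with J-domain proteins, which bring clients and stimulate ATP hydrolysis, and with BAG and HSP110 proteins, which release ADP. HSP90 and its co-chaperones act late on kinases, receptors and other clients, whereas prefoldin passes nascent actin and tubulin to the ring of CCT. In stressed cells the heat shock factor HSF1 binds heat shock elements (HSEs) in promoters and switches on many of these genes, and activated B cells need folding capacity as they grow and divide.

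The libraries were first checked against their labels. Zbtb24 was at 49.6, 49.6 and 37.1 FPKM in CON and at 14.3, 10.5 and 12.6 FPKM in B-CKO at D0, and at D1 and D2 the B-CKO mean was 62% and 68.6% of the CON mean. All B-CKO libraries lay below all CON libraries at each of the 3 times. The 7 B cell markers used summed to 3913 to 5293 FPKM at D0, 1999 to 2317 FPKM at D1 and 2258 to 2636 FPKM at D2, and the 4 markers of NK cells to at most 2.6 FPKM. The 8 myeloid markers summed to 6.55 to 15 FPKM and the 7 erythroid markers to 7.51 to 71.1 FPKM. The sum of 9 T cell markers in CON was between 214 and 223 FPKM at D0 and between 38.5 and 43.4 FPKM at D1. At D2 it was between 70 and 85.2 FPKM. Most of this sum was Cd2, at 184, 194 and 190 FPKM in CON at D0, so it mainly follows that gene. Of 15 early response genes, which are switched on within minutes of handling or stimulation, Fos lay between 344 and 444 FPKM at D0, and the sum of the list in CON fell from between 4957 and 7054 FPKM to between 434 and 450 FPKM at D1.

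A few promoter sequences are given first, since they show which members carry an HSE close to the start site. RefSeq windows of 250 bases before to 50 bases after the start (GRCm38.p6) were found for 32 of the 40 genes. No window was held for Pfdn1, Hspa8, Hsf1, Dnajc2, Cct4, Hspa9, Hsp90ab1 and Hsp90aa1. An HSE of 3 units was searched on both strands as the letters GAA and TTC in alternation, starting with either and with NN, any 2 bases, between units. Matches may overlap each other and the shorter element of 2 units. It was found in 5 members, against 0.662% of 27025 genes with a window. The 5 matches are printed 5′ to 3′ on the strand of the gene, with the units of the element in capitals.

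Hspd1, chr1:55088053-55088082, minus strand: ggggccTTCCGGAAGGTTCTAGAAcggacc
Hspe1, chr1:55088053-55088082, plus strand: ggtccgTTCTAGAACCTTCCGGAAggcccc
Hsph1, chr5:149636287-149636316, minus strand: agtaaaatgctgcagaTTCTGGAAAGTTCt
Chordc1, chr9:18292260-18292289, plus strand: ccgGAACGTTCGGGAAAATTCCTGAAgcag
Dnajb6, chr5:29735844-29735873, plus strand: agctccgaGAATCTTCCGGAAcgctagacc

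The element of Hspd1 and that of Hspe1 are the same 18 bases read from opposite strands. The genes encode the mitochondrial chaperonin HSP60 and its lid HSP10, and their annotated spans overlap by 96 bases. The element begins 89 bases before the start of Hspe1, whereas in Chordc1 it begins 4 bases before the start and in Hsph1 36 bases after it. The shorter HSE of 2 units, GAANNTTC or TTCNNGAA, was found in 14 of the 32 members and in 17% of all genes with a window. A letter match is a description of the sequence and was not tested as a binding site.

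Control B cells showed a broad rise of chaperone RNA by D1. Of the 40 genes, 32 were higher and 5 lower at D1 than at D0 (limma on log2 of FPKM + 1, adjusted p under 0.05), and among all 15531 genes tested 26.7% were higher and 30.7% lower. The median change of the 40 was 1.53 on the log2 scale, beside -0.02 over all genes. In the same libraries 5 of the 7 B cell markers were lower at D1 and 0 higher in CON (median -1.06), and their part in the result was not tested. The rise covered all 8 CCT subunits, all 6 HSP90 genes and co-chaperones and all 5 mitochondrial genes. The 5 genes that fell were Hspa1a, Hspa1b, Dnajb1, Dnajb4 and Pfdn5. Dnajb6, Bag3 and Hsf1 did not pass the test, with changes of 0.07, -0.17 and -0.17, and that of Dnajb6 was -0.10 after rescaling to TPM. Summed over the 40 genes, chaperone RNA made up 0.717% to 1.22% of all FPKM in the 6 D0 libraries and 2.15% to 2.36% in the 6 D1 libraries. At D1 Hsp90ab1, the constitutive HSP90, and Hspa8, the constitutive HSC70, ranked 12th and 18th among the 14464 genes detected in CON. When 1 library or 1 replicate number was left out, 27 to 32 genes were higher and 2 to 6 lower, and the 2 lower genes were the count without replicate number 2.

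**Figure D1:**
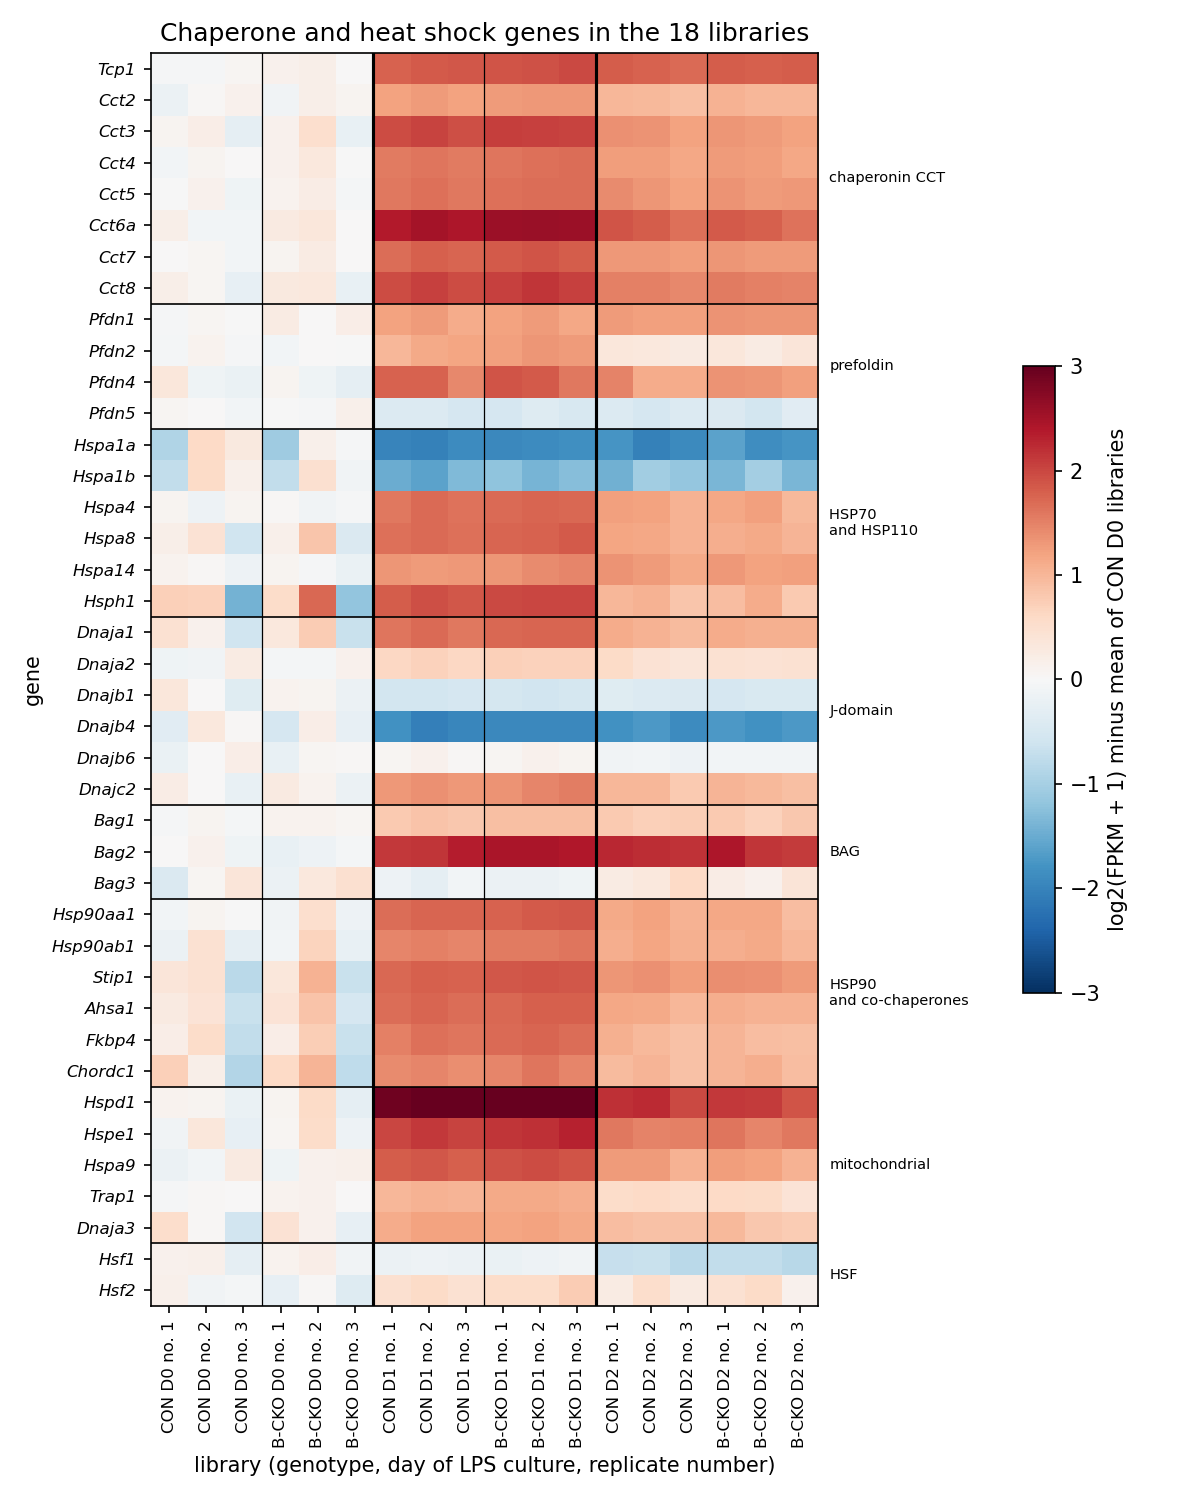
Level of each of the 40 genes (rows, grouped by role) in each of the 18 libraries (columns), as log2(FPKM + 1) minus the mean of the 3 CON D0 libraries; red is higher and blue lower. Most rows are red in all D1 and D2 libraries, while Hspa1a, Hspa1b, Dnajb1, Dnajb4 and Pfdn5 are blue. Hsf1 is also blue in the D2 libraries. The D0 columns differ among themselves in rows such as Hsph1.

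The CCT subunits form the 2 stacked rings that fold actin and tubulin. Cct6a rose the most: it was at 59.3, 49.2 and 49.3 FPKM in the CON libraries at D0, 275, 302 and 286 FPKM at D1 and 196, 188 and 167 FPKM at D2. The groups did not overlap, and the D1 mean was 5.47 times the D0 mean, a log2 change of 2.43 ± 0.09 (SE, adjusted p = 7.35e-06). Cct2 rose the least, from 138, 161 and 171 FPKM at D0 to 364, 378 and 361 FPKM at D1 and 313, 310 and 295 FPKM at D2. Its log2 change from D0 to D1 was 1.23 ± 0.09 (SE, adjusted p = 6e-05), and again no library of one day overlapped with another day. Thus the subunit with the lowest level at D0 rose the most and the one with the highest level the least. Since the starting level is part of each change, this is a description of how the levels came together and no separate finding. In every D0 library Cct6a was the lowest and Cct2 the highest of the 8, with 2.31 to 3.47 times between them. At D1 the lowest was Cct4 and the highest Cct5 in all 6 libraries, with 1.53 to 1.6 times between them. The coefficient of variation across the 8 subunits was 27.3% to 42.9% in the D0 libraries, 14.6% to 16.5% at D1 and 22.9% to 26.8% at D2. The summed CCT level was 710 to 890 FPKM at D0, 2431 to 2677 FPKM at D1 and 1800 to 1968 FPKM at D2.

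**Figure D2:**
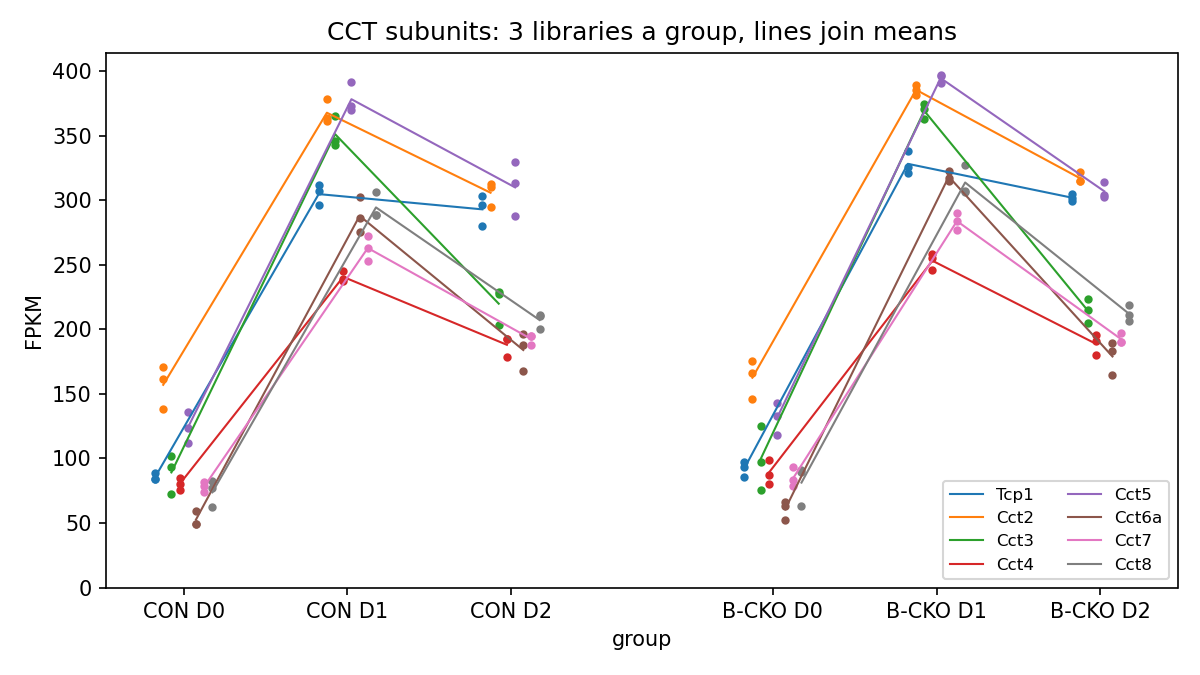
FPKM of the 8 CCT subunits in each library (points) by group, with lines joining the means of 3 libraries. Cct2 is highest and Cct6a lowest at D0 in CON and in B-CKO, and the subunits lie closer together in proportion at D1. In CON Tcp1 stays near its D1 level at D2, whereas in B-CKO its change of -0.12 was called.

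Prefoldin delivers nascent chains to CCT. Its subunits did not move together. Pfdn4 was at 13.7, 9.54 and 9.08 FPKM in CON at D0, 38.3, 38.3 and 30.4 FPKM at D1 and 31.4, 24.3 and 24 FPKM at D2. It rose by 1.65 ± 0.17 (log2, SE, adjusted p = 0.000312), and Pfdn1 and Pfdn2 rose by 1.2 and 1.1. In contrast, Pfdn5, which is also known as the MYC-binding protein MM-1, was at 190, 184 and 174 FPKM at D0, 137, 138 and 128 FPKM at D1 and 136, 128 and 137 FPKM at D2. All D1 libraries lay below all D0 libraries, with a change of -0.44 ± 0.06 (log2, SE, adjusted p = 0.000958). Pfdn5 was by far the most abundant of the 4 at D0, so the summed prefoldin level was only 245 to 277 FPKM at D0 and 304 to 341 FPKM at D1 over both genotypes.

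Among the 6 HSP70 and HSP110 genes, 4 rose and the stress-inducible pair Hspa1a and Hspa1b fell. Hspa8 rose by 1.67 and Hspa4, an HSP110-type exchange factor, by 1.64, while Hspa14, the ribosome-associated HSP70, rose by 1.30. Hsph1, which encodes HSP110, was at 38.0, 37.6 and 7.96 FPKM in CON at D0, 82.4, 90.1 and 85.3 FPKM at D1 and 46.4, 48.1 and 41.4 FPKM at D2. Every D1 library was above every D0 library, but 1 D0 library was far below the other two, and the change of 1.87 ± 0.57 (log2, SE, adjusted p = 0.0302) was called at the edge of the threshold. Over the alternatives its change ran from 1.16 to 2.25 and its adjusted p from 5.91e-05 to 0.108. The call was lost without any 1 of the 3 CON D1 libraries and without replicate number 1 or 2.

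Hspa1a and Hspa1b encode the stress-inducible HSP70. Hspa1a was at 1.43, 5.79 and 4.56 FPKM in CON at D0, 0.15, 0.11 and 0.22 FPKM at D1 and 0.33, 0.11 and 0.20 FPKM at D2. Hspa1b was at 1.69, 5.70 and 3.96 FPKM at D0, 0.59, 0.48 and 0.78 FPKM at D1 and 0.65, 1.17 and 0.99 FPKM at D2. The D0 and D1 libraries did not overlap in either gene, and the D1 means were 0.0408 and 0.163 of the D0 means. With 1 added to each FPKM before taking log2, a step that makes changes of low genes look smaller, the falls were -1.96 ± 0.37 for Hspa1a (SE, adjusted p = 0.00439) and -1.47 ± 0.32 for Hspa1b (adjusted p = 0.00845). With replicate number 2 or 3 left out in all groups neither fall passed the test, with adjusted p up to 0.0591 and 0.0768. The pair are near-identical copies on chromosome 17, and how reads were divided between them is not given in the sources used here, so their separate levels are uncertain. The 200 bases before their start sites are printed to show how alike the copies are, with an HSE of 2 units in capitals.

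Hspa1a, chr17:34972157-34972356, minus strand: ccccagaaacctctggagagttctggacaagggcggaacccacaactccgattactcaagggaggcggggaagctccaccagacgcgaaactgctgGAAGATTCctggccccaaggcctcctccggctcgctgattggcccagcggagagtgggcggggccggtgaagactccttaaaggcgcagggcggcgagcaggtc
Hspa1b, chr17:34959239-34959438, minus strand: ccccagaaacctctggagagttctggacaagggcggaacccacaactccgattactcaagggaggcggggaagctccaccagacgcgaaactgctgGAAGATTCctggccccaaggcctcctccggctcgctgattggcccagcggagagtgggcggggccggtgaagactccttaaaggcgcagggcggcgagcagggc

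In these windows 199 of 200 bases are identical. Neither holds the HSE of 3 units as it was spelled for the search. Beside the fall of this pair, the early response genes fell in the same libraries, 14 of 15 being lower at D1 than at D0 in CON, and their part in the result was not tested.

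The J-domain proteins were divided. Dnaja1, a co-chaperone of HSC70, was at 62.8, 49.6 and 29.6 FPKM in CON at D0, 140, 148 and 136 FPKM at D1 and 99.5, 94.9 and 88.3 FPKM at D2. It rose without overlap by 1.63 ± 0.26 (log2, SE, adjusted p = 0.00198), as did Dnaja2 by 0.65 (not called without replicate number 2, adjusted p = 0.0513) and Dnajc2, which acts at the ribosome, by 1.33. Dnajb4 went the other way, from 18.7, 30 and 24.8 FPKM at D0 to 6.1, 5 and 5.4 FPKM at D1 and 6.14, 6.63 and 5.73 FPKM at D2. Its fall of -1.95 ± 0.17 (log2, SE, adjusted p = 0.000165) left no overlap, and Dnajb1, the main J-domain partner of inducible HSP70, fell by 0.54 (adjusted p = 0.0319). That fall was not called in 6 of 16 alternatives, with adjusted p up to 0.204. Hspa1a, Hspa1b, Dnajb1 and Dnajb4 are the members best known as heat-inducible among those that fell, whereas Hsph1, Chordc1 and Hspd1, which are also heat-inducible, rose. Of the 5 genes with a 3-unit HSE in their window, 4 rose, beside 32 of all 40 members, and Dnajb6 had a change of 0.07. Members without a window could not enter this count.

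BAG proteins release nucleotide from HSP70. Bag2, which inhibits the HSP70 partner ubiquitin ligase CHIP, was nearly silent at D0 with 0.66, 0.81 and 0.51 FPKM in CON, and was at 6.24, 6.35 and 7.49 FPKM at D1 and 6.96, 6.68 and 6.39 FPKM at D2. The D1 mean was 10.1 times the D0 mean (log2 change 2.21 ± 0.12, SE, adjusted p = 2.01e-05), and the gene remained at that level. Bag3, a stress-induced factor of selective autophagy, was at 0.63, 1.28 and 1.83 FPKM at D0, 0.96, 0.83 and 1.08 FPKM at D1 and 1.61, 1.74 and 2.34 FPKM at D2. Its D0 and D1 libraries overlapped, and the change of -0.17 ± 0.20 (log2, SE) did not pass the test (adjusted p = 0.516), but it was a called fall of -0.38 without CON D0 number 1 (adjusted p = 0.0391). Bag1 rose by 0.82.

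The 6 genes of the HSP90 system rose by similar amounts, from 1.43 for Chordc1 to 1.76 for Stip1 on the log2 scale. Stip1, the HOP protein that links HSP70 with HSP90, was at 96.0, 102 and 41.6 FPKM in CON at D0, 249, 260 and 254 FPKM at D1 and 188, 194 and 178 FPKM at D2. Chordc1, an HSP90 co-chaperone, was at 42.7, 28.6 and 13.3 FPKM at D0, 69.6, 72.4 and 68.2 FPKM at D1 and 50.4, 52.4 and 47.8 FPKM at D2. In both genes the D1 libraries were tightly grouped above D0 libraries that differed several-fold. The adjusted p was 0.00431 for Stip1 and 0.0188 for Chordc1, and that of Chordc1 rose to as much as 0.135 when libraries were left out. Hsp90aa1, the inducible HSP90, rose by 1.72 and Hsp90ab1 by 1.48, with means of 691 and 2494 FPKM at D1. Ahsa1, which activates the HSP90 ATPase, and the immunophilin Fkbp4 rose by 1.70 and 1.60.

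The mitochondrial chaperones included the largest rise of the 40 genes in CON on the log2(FPKM + 1) scale, that of Hspd1, although Bag2 rose more as a ratio of mean FPKM (10.1 against 7.96) and with a pseudocount of 0.1 (3.17 against 3.00 on the log2 scale). Hspd1, at chr1:55077833-55088243, was at 75.7, 75.0 and 61.4 FPKM in CON at D0, 536, 586 and 565 FPKM at D1 and 326, 337 and 282 FPKM at D2. The 3 days did not overlap, and the rise to D1 was 7.96-fold (log2 change 2.98 ± 0.09, SE, adjusted p = 6.23e-06). Its partner Hspe1, which shares the HSE printed above, rose by 2.06. Since the sources used here do not say whether counting used the strand, reads from the 96 shared bases could be split between the pair. The smallest rise of the group was that of Trap1, the mitochondrial HSP90, with 40, 42.2 and 41.1 FPKM at D0, 82.6, 86.3 and 84.4 FPKM at D1 and 60.6, 62.7 and 59.3 FPKM at D2. Small as it was, the change of 1.02 ± 0.05 (log2, SE, adjusted p = 1.46e-05) was far outside the replicate spread. Hspa9, the mitochondrial HSP70 mortalin, rose by 1.83 and its J-domain partner Dnaja3 by 1.18, which was not called without replicate number 2 (adjusted p = 0.103).

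Of the 2 heat shock factors, Hsf2 rose by D1 and Hsf1 did not pass the test with all libraries. Hsf1, the main stress factor, was at 48.6, 50.1 and 36.6 FPKM in CON at D0, 39.5, 40.1 and 39.4 FPKM at D1 and 27.2, 27.9 and 24.9 FPKM at D2. D0 and D1 overlapped, with a change of -0.17 (adjusted p = 0.288, and 0.00156 to 0.666 over the alternatives). It was a called fall without CON D0 number 3 (-0.31, adjusted p = 0.00156), without number 3 of both days (-0.30, adjusted p = 0.0132) and after rescaling to TPM (-0.34, adjusted p = 0.0379). All D2 libraries were below all others, with a log2 change of -0.56 ± 0.05 from D1 to D2 (SE, adjusted p = 0.00015). Hsf2 was low throughout, at 3.47, 2.77 and 2.87 FPKM at D0, 4.6, 4.95 and 4.49 FPKM at D1 and 3.76, 4.80 and 3.83 FPKM at D2. It rose by 0.50 ± 0.11 (log2, SE, adjusted p = 0.00758), a call lost without replicate number 2 (adjusted p = 0.0876). These are RNA levels, and HSF1 is regulated mainly at the protein.

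From D1 to D2 most of the rise was partly undone. In CON 28 of the 40 genes fell and 2 rose (limma, adjusted p under 0.05), beside 24.8% lower and 20.1% higher among all 15178 genes tested, and the median of the 40 was -0.41. In the same libraries 4 of 5 plasma cell markers were higher at D2 and 0 lower (median 1.07), their sum going from 138 to 154 FPKM at D1 to 194 to 316 FPKM at D2, and their part in the result was not tested. The largest falls were those of Hsph1 (-0.91), Hspd1 (-0.84) and Pfdn2 (-0.80), and Cct6a, Dnaja1, Stip1, Chordc1 and Trap1 fell by 0.65, 0.58, 0.44, 0.47 and 0.47. All 6 genes of the HSP90 group and all 5 mitochondrial genes fell, as did 7 of the 8 CCT subunits. The exception was Tcp1, singled out after its values were seen, which was at 296, 307 and 311 FPKM at D1 and 303, 296 and 280 FPKM at D2, with overlapping days and a change of -0.06 ± 0.04 (log2, SE, adjusted p = 0.322). Bag3 rose by 0.56 ± 0.10 (SE, adjusted p = 0.00477, and 0.0526 without replicate number 2) and Dnajb1 by 0.13 ± 0.03 (SE, adjusted p = 0.0157), and the latter was not called in 7 of the 16 alternatives. With all 18 libraries in a single fit, in which the wider spread of the D0 libraries enters, 16 genes fell and 1 rose. In that fit 7 of the 8 CCT subunits and 4 of the 5 mitochondrial genes fell but only 1 of the 6 HSP90 genes, Hsp90aa1, and the falls of Hsph1, Dnaja1, Stip1 and Chordc1 were not called (adjusted p = 0.303, 0.153, 0.413 and 0.44). Despite the falls, 29 genes were still higher and 5 lower at D2 than at D0, beside 26.5% and 30.3% of all genes. Hspd1 remained 2.14 and Bag2 2.21 above D0 on the log2 scale, Hsf1 was 0.72 below it (change -0.72), and Hsph1 was not told apart from D0 (0.96, adjusted p = 0.197). The value of Hsph1 rested on CON D0 number 3: without it the difference was 0.25 and was called (adjusted p = 0.0357), as it was without number 3 of both days (0.31, adjusted p = 0.0164) and with the block and the 1 FPKM filter together (adjusted p = 0.0386).

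B-CKO cells went through a similar sequence, with some calls that differed. By D1 31 of the genes were higher and 5 lower than at D0, beside 27.5% and 32.3% of all genes tested, with a median of 1.48. Lower in the same libraries were 6 of 7 B cell markers (median -1.32) and 14 of 15 early response genes (median -4.18). The part of these lists was not tested. Hspd1 was at 75.1, 106 and 58.2 FPKM at D0, 586, 626 and 599 FPKM at D1 and 308, 303 and 263 FPKM at D2 in these mice, without overlap between days. Bag2 was at 0.41, 0.50 and 0.60 FPKM at D0 and 7.99, 8.02 and 7.73 FPKM at D1, a log2 change of 2.57 ± 0.09 (SE, adjusted p = 3.81e-06). Dnajb4 fell from 16.6, 27.8 and 20.2 FPKM to 5.51, 5.52 and 5.55 FPKM, and Hspa1a from 1.15, 4.01 and 3.37 FPKM to 0.19, 0.21 and 0.26 FPKM, the latter not called without replicate number 2 or 3 (adjusted p up to 0.0674). The same 5 genes fell as in CON. From D1 to D2 31 genes fell and 2 rose, beside 24% and 21.7% of all genes, and 28 were higher and 6 lower at D2 than at D0, beside 27% and 30.7%. Hsph1 was at 33.6, 77.4 and 9.52 FPKM at D0 and 93.6, 93.7 and 93.9 FPKM at D1, and its rise was not called (1.63 ± 0.67, SE, adjusted p = 0.0786). It was called in 4 of 16 alternatives: without B-CKO D0 number 2 (2.31, adjusted p = 0.014), with the 1 FPKM filter (adjusted p = 0.0418), in the single fit (adjusted p = 0.0261) and with the block and filter together (adjusted p = 0.0159). It was 0.86 without B-CKO D0 number 3. That the rise was called in CON and not in B-CKO does not show a difference between genotypes. The test of the difference itself did not pass. It called 0 of all 16182 genes, so it does not show that the genotypes rose alike either.

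**Figure D3:**
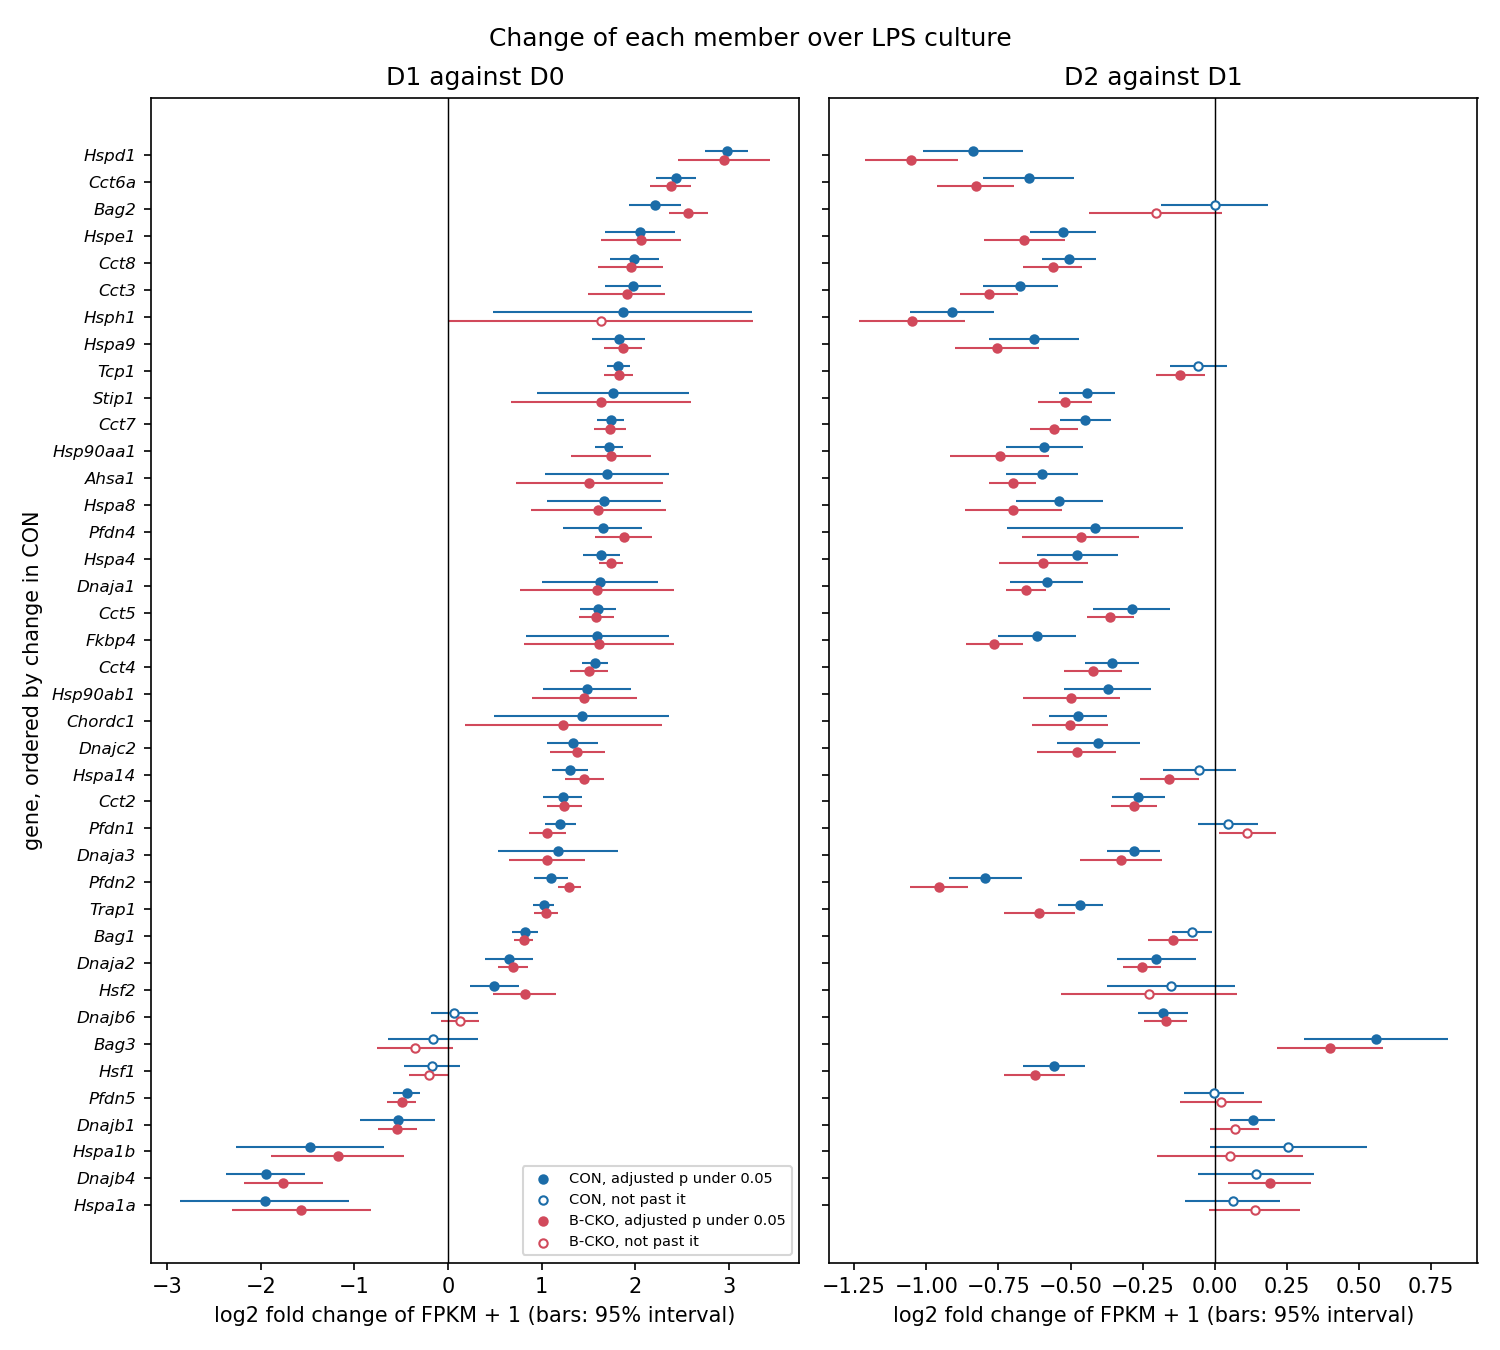
Log2 fold change of each gene from D0 to D1 (left) and from D1 to D2 (right) in CON (blue) and B-CKO (red), with 95% intervals; filled points passed an adjusted p of 0.05. Fold changes are of FPKM + 1. On this scale Hspd1 has the largest rise on the left and Hspa1a the lowest value in CON, with the widest intervals in genes such as Hsph1, and on the right most points lie below 0.

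The D0 libraries varied more than those of LPS-treated cells, and at D0 and D2 many members were ordered alike by replicate number in both genotypes. The full order of the 3 numbers was the same in both for 23 of the 40 at D0, beside 33.8% of all genes. It was the same for 8 at D1, beside 15.4%, and for 19 at D2, beside 17.2%. The median SD of the 40 genes in CON was 0.215 at D0, 0.0504 at D1 and 0.0836 at D2 on the log2 scale, beside 0.171, 0.0556 and 0.0745 over all genes whose mean reached 1 FPKM. Highest over lowest reached at least 1.5 in 17 of the 40 genes in CON and 18 in B-CKO at D0, and in 2 and 0 at D1. At D0 number 3 was the lowest in both genotypes for 21 of the 40 genes, beside 20.8% of all 15641 genes, and number 2 the highest in both for 18, beside 5.8% of all genes. At D1 number 2 was the highest in both for 16, beside 10.2%, and at D2 number 3 was the lowest for 23, beside 13.6%, and number 1 the highest for 19, beside 7.46%. At D0 Hsph1 was at 7.96 FPKM in CON number 3 and 9.52 FPKM in B-CKO number 3, against 33.6 to 77.4 FPKM in the other four. Chordc1 was at 13.3 and 14.5 FPKM in the number 3 libraries and at 28.6 to 52.5 FPKM elsewhere. Stip1, Ahsa1, Fkbp4, Dnaja1 and Hspa8 had the same number 3 minimum in both genotypes.

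The number 3 libraries at D0 also had the highest erythroid marker sums, 37.6 FPKM in CON and 71.1 FPKM in B-CKO against 11.7 to 30.2 FPKM in the other four, and their part in the low values was not tested.

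Some genes had another order. Number 1 was the lowest in both genotypes for 8 of the 40 genes, beside 12.6% of all genes. Of the 5 genes that fell with LPS, Hspa1a, Hspa1b and Dnajb4 were lowest there, as was Bag3, which did not fall. Dnajb1 was lowest in number 3 of both genotypes, and Pfdn5 in number 3 of CON and number 2 of B-CKO. Dnajb4 was at 18.7 FPKM in CON and 16.6 FPKM in B-CKO there, against 20.2 to 30 FPKM in the others. Of the 15 early response genes, 5 were lowest in number 1 of both genotypes and 3 highest there, 9 were highest in number 2, and 4 were lowest in number 3. Over 9997 genes, the deviations of same-numbered D0 libraries from their group means correlated between genotypes at 0.854, 0.468 and 0.789, a description of libraries that share a number. What the number stands for is not given in the sources used here, and its part in these levels was not tested.

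**Figure D4:**
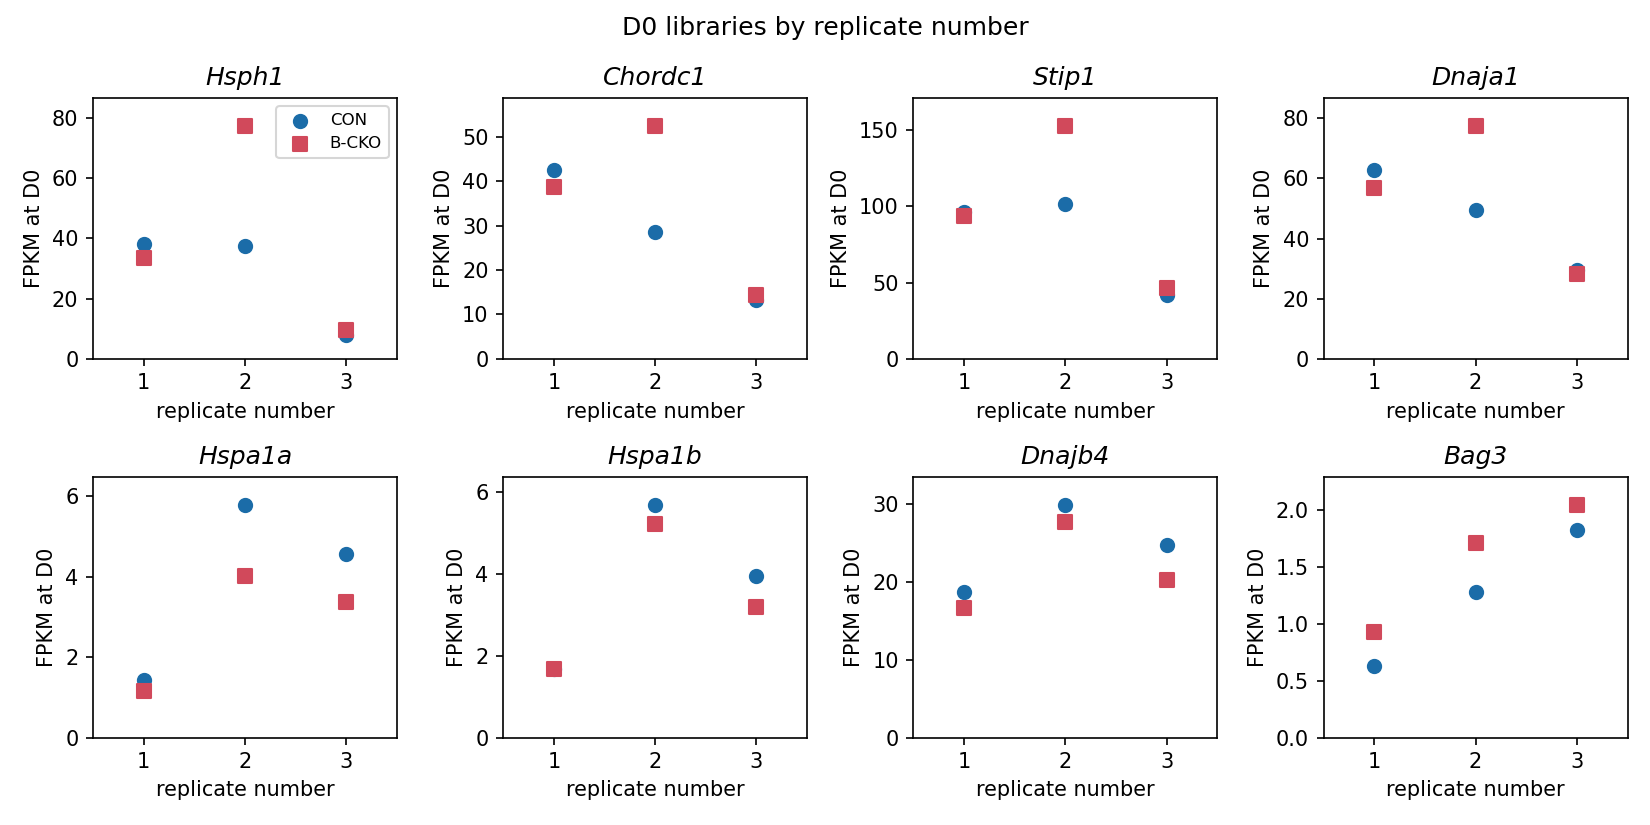
FPKM at D0 of 8 genes by replicate number, with 1 point per library, CON as blue circles and B-CKO as red squares. In the upper row number 3 is lowest in both genotypes, while in the lower row number 1 is lowest.

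The last question was whether loss of Zbtb24 changed the level of these genes. At no time did any of the 40 differ between B-CKO and CON at an adjusted p under 0.05 in limma. At D0 none of the 40 passed an unadjusted p under 0.05 in the fit without pairing and none separated the groups, whereas among all genes 0% were called in either direction, 0.901% and 1.1% had an unadjusted p under 0.05 (higher and lower) and 1.92% and 1.94% did not overlap. Zbtb24 itself was among the genes not called at D0, although its groups did not overlap. The lack of calls at D0 therefore does not show that levels were unchanged. The B-CKO mean was on the higher side for 30 of the 40 genes at D0, but for 16 without B-CKO number 2. Hsph1, with the values given above, had a difference of 0.36 (95% interval -1.76 to 2.48), and it turned sign without B-CKO number 2 (-0.32) or CON number 3 (-0.34). The interval of this gene spans differences of over 1 log2 unit in either direction.

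The D0 libraries paired by number, so the difference was also taken within pairs, with counts added after seeing the data. With the replicate number as a block 0 of the 40 were called. At an unadjusted p under 0.05, 3 were higher (Ahsa1, Hspe1 and Bag3) and 2 lower (Hspa1a and Dnajb4), beside 2.71% and 2.99% of all 15641 genes. B-CKO was above CON in all 3 pairs for 13 of the genes, 5 of them CCT subunits, beside 10.2% of all genes, and below in all 3 for 4, beside 11.4%. Hsph1 had a 95% interval of -0.29 to 1.01 in this fit, with pairs on both sides.

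At D1, where replicates were closest, the B-CKO mean was on the higher side for 37 of the 40 genes, and 0 were called beside 0.0132% higher and 0.0861% lower of all 15104 genes. At an unadjusted p under 0.05, 18 were higher and 0 lower, beside 6.79% and 9.51% of all genes. All 3 B-CKO libraries were above all 3 CON libraries in 21 of the genes and in none below, beside 8.43% and 11.7% of all genes, or 11.8% and 15.9% where the mean level reached 1 FPKM. The median difference was 0.09, beside -0.00464 over all genes. Stip1 was at 249, 260 and 254 FPKM in CON and 273, 276 and 270 FPKM in B-CKO, a difference of 0.10 (95% interval 0.04 to 0.17, adjusted p = 0.139), the lowest adjusted p of the 40. Trap1 was at 92.0, 92.3 and 88.7 FPKM in B-CKO, above its 3 CON values, with a difference of 0.11 (adjusted p = 0.141). Cct6a was at 317, 323 and 315 FPKM in B-CKO, also without overlap (0.15, adjusted p = 0.149), and Bag2 had the largest difference on the log2(FPKM + 1) scale (0.22, 95% interval 0.05 to 0.38, adjusted p = 0.202). These differences were small beside the changes with LPS, and none passed the test across all genes. The genes were measured in the same 6 libraries, so their common side is not 37 independent observations. In the same libraries the 7 B cell markers were on the lower side in B-CKO in 7 of 7 (median -0.13) and the early response genes in 12 of 15 (median -0.09), with 4 of each list at an unadjusted p under 0.05 and 0 called. Plasma cell markers were on the lower side in 5 of 5 (median -0.13), with 0 at an unadjusted p under 0.05. The part of these 3 lists in the result was not tested. With a block for replicate number and only genes averaging 1 FPKM or more, an alternative chosen after seeing the data, 2 of the genes were called higher, Cct6a (adjusted p = 0.0414) and Pfdn2 (adjusted p = 0.0375). In the single fit of 18 libraries 4 genes had an unadjusted p under 0.05, and when libraries were left out 7 to 22 had one, with 9 without CON number 1, 8 without B-CKO number 2, and 8 and 7 without number 1 or number 3 of both genotypes.

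At D2 the B-CKO mean was on the higher side for 20 of the 40 genes and on the lower side for the other 20. Again 0 were called, beside 0.00657% and 0.0394% of all genes, and 1 gene, Pfdn1, had an unadjusted p under 0.05 (higher), beside 3.57% higher and 4.14% lower. All 3 B-CKO libraries were above all CON libraries in 2 of the genes and below in 1, beside 4.89% and 6.24% of all genes. The D1 and D2 comparisons use different libraries of the same genotypes. Whether same-numbered libraries of different days came from the same mouse is not given in the sources used here. The main fits over time did not pair them. The change with time did not differ between genotypes in any of the 40 genes at an adjusted p under 0.05. For D0 to D1, 2 genes had an unadjusted p under 0.05 (Bag2 and Pfdn2, steeper rise in B-CKO), beside 1.38% of all genes higher and 1.51% lower. For D1 to D2, 3 genes had one (Pfdn2, Trap1 and Cct7, steeper fall in B-CKO), beside 3.93% and 3.38%. The estimate was on the lower side in B-CKO for 35 of the 40 (median -0.08) from D1 to D2, and for 21 of the 40 from D0 to D1. It was on the higher side for 7 of the 7 B cell markers and 13 of the 15 early response genes from D1 to D2 (medians 0.16 and 0.12). The part of these lists was not tested. No gene of the whole table was called in either of these tests (0%).

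**Figure D5:**
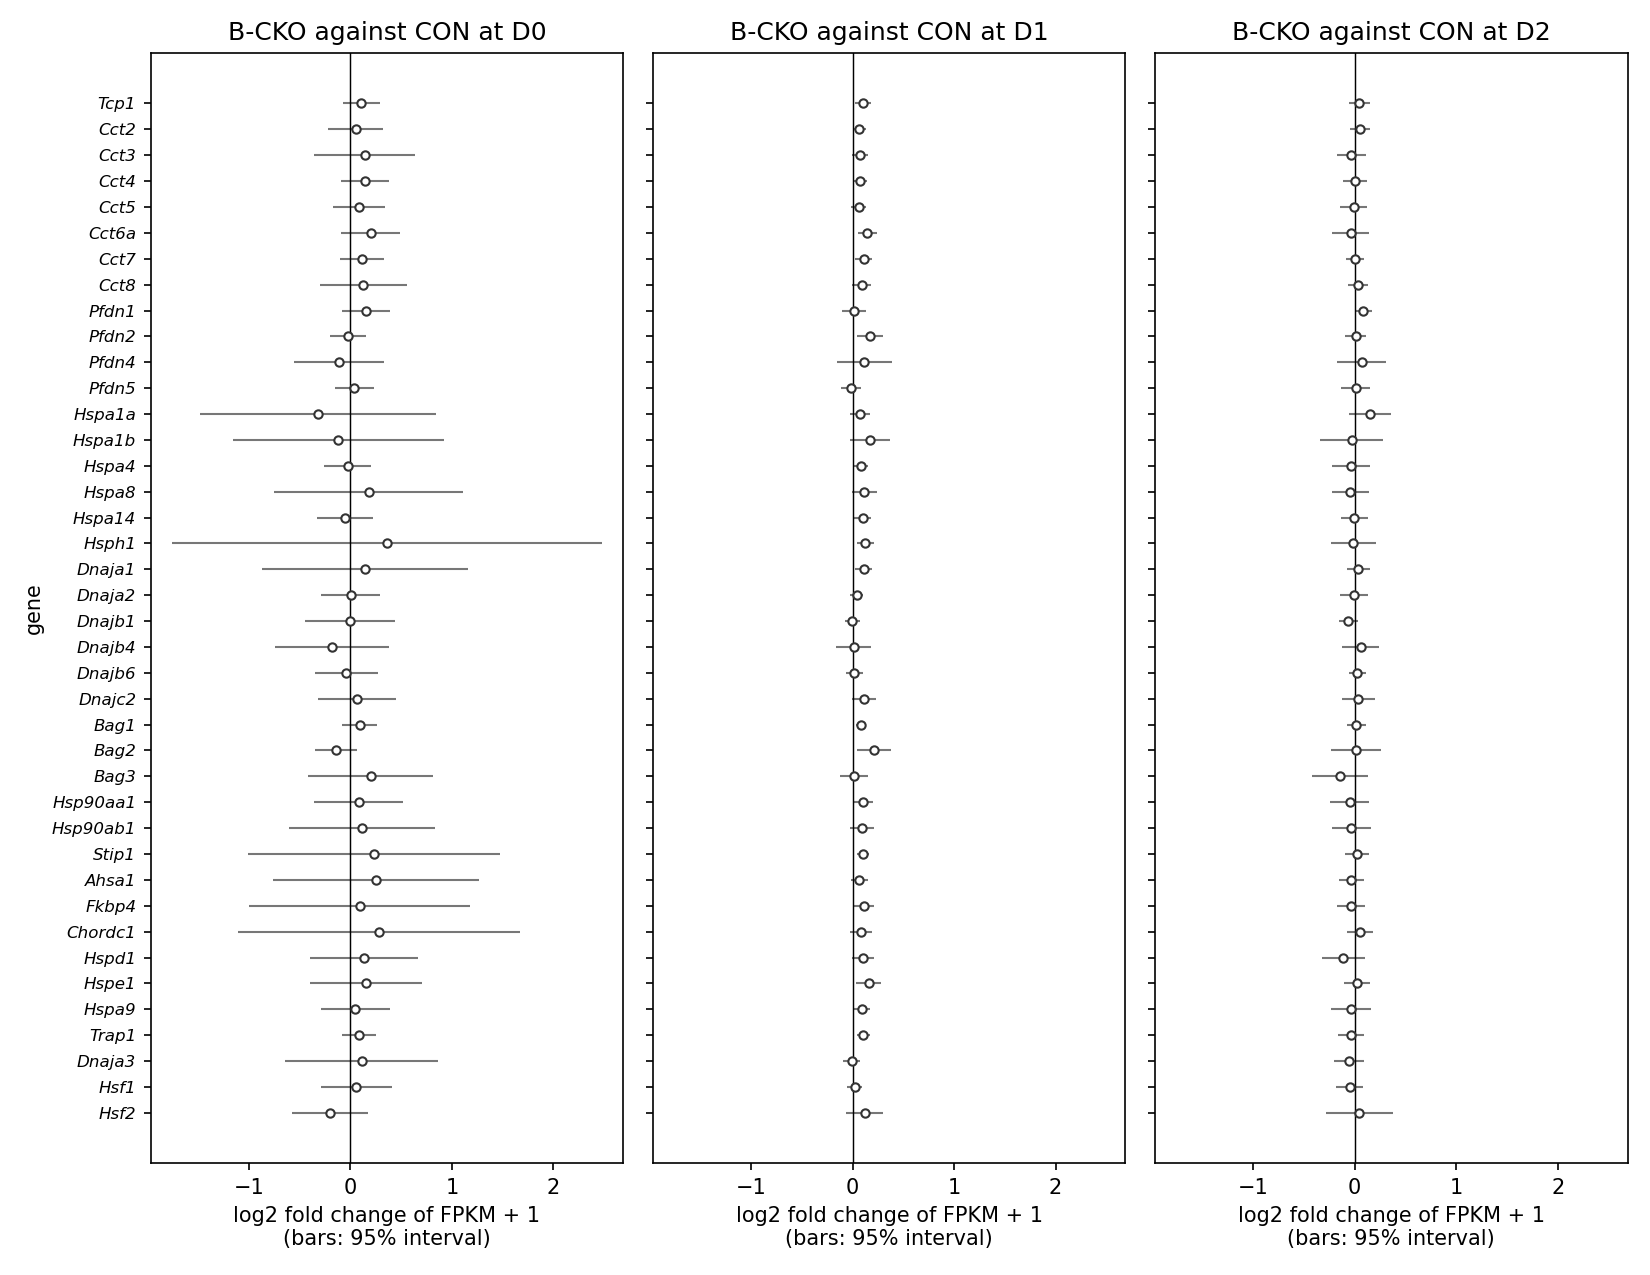
Log2 difference between B-CKO and CON for each of the 40 genes at D0, D1 and D2, with 95% intervals. The intervals are widest at D0, 37 of the 40 estimates at D1 lie above 0, and at D2 the estimates lie on both sides.

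Other cytosolic chaperones and co-chaperones, taken as a list of 44 genes by function, were used to see how far the rise went beyond the members. In CON 22 of the 43 that were tested were higher at D1 than at D0 and 8 lower, beside 26.7% and 30.7% of all genes, with a median of 0.47 (log2). The largest rises were those of Ppid, the cyclophilin 40 that joins HSP90 complexes (2.34), and of Ruvbl2 and Ruvbl1, the ATPases of the R2TP co-chaperone (2.24 and 1.99). On the log2(FPKM + 1) scale the largest falls, named here after their values were seen, were those of the J-domain protein Dnajb2 (-1.51, adjusted p = 0.0026) and of Hspa2, a further HSP70 (-1.13, adjusted p = 0.000598). In proportion the low gene Hspb1, a small heat shock protein, fell further, from 0.92, 1.56 and 1.33 FPKM to 0.18, 0.06 and 0.18 FPKM (-0.99, adjusted p = 0.00047). Between genotypes at D1 0 of the 43 were called, and 28 of 43 were on the higher side, with a median difference of 0.02.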

How the data were processed

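B cells were purified from mouse spleens and RNA-seq libraries were made in 3 replicates per group. The authors aligned reads to mm10 with Bowtie2, quantified genes with RSEM (Cufflinks is also named) and deposited gene-level FPKM. The submitters' processing notes list BWA and DESeq2 as well, without versions. Reads per library and the strand setting are not given in the sources used here. The deposited FPKM were used as they stand, and 16512 of 16545 gene IDs matched RefSeq GRCm38.p6, whereas 33 did not.

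From the FPKM, log2(FPKM + 1) was fitted per comparison in limma 3.58.1 (R 4.3.3) with a trend, over all genes above 0 FPKM in any library of the fit. P-values were Benjamini-Hochberg adjusted over all these genes, called under 0.05, and are two-sided. They set each difference between groups against the spread among these libraries. Only the groups compared entered each of the 11 comparisons. The code was tested on simulated data. Tables were handled with Python 3.11.15, pandas 2.3.3 and numpy 2.4.6, and figures drawn with matplotlib 3.10.9.

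The members, the lists and the tests were chosen with earlier results of these data known. Per-library values were given for the members with the largest rise and the largest fall or smallest rise of each role in CON from D0 to D1, for Hspa1a and Hspa1b, and for members called between genotypes. From each other list, at most the 3 called genes with the largest change were named, and exceptions are marked. One item is not reported here.

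Same-numbered libraries of the 2 genotypes correlated in their deviations from the group mean over 9997 genes at D0 (0.854, 0.468 and 0.789), so the numbers pair the samples there by a criterion of over 0.1 in every pair, and D1 and D2 of B-CKO did so as well (0.126, 0.183 and 0.117). Other comparisons did not meet it. Alternatives were a pseudocount of 0.1, a minimum mean of 1 FPKM, TPM, median ratio scaling, the replicate number as a block, a single fit of 18 libraries and leaving out each library or number. The block together with the 1 FPKM filter, the count of genes on the higher side, and the D0 counts within pairs and at an unadjusted p, were added after seeing the data.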

Additional observations from a re-analysis of the deposited data

How the results depend on the processing

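Under the alternatives, 419 recomputed counts stayed within 1.5 times the value reported and 37 did not. Counts of 0 that stayed 0, as for calls between genotypes, are among those that stayed. The number of chaperone genes that rose from D1 to D2 was 2 in each genotype, and 1 in each after rescaling to TPM and with the replicate number as a block, while in the single fit of 18 libraries it was 1 in CON and 0 in B-CKO. That fit also lowered the number that fell from 28 to 16 in CON and from 31 to 19 in B-CKO, and the number higher in B-CKO at D1 at an unadjusted p under 0.05 from 18 to 4. With the replicate block and genes of at least 1 FPKM together, 2 genes were called higher in B-CKO at D1 in place of 0. With the block alone 0 genes were called between genotypes at D0, D1 or D2, and at D1 24 had an unadjusted p under 0.05. At D0, 0 genes had an unadjusted p under 0.05 without the block, 3 higher and 2 lower had one with it, and 4 and 2 with the block and the 1 FPKM filter together, while the single fit gave 5 higher. The block moved no other count compared here by over 1.5 times.

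When libraries or replicate numbers were left out in turn, 2 to 6 genes were lower at D1 than at D0 in CON, 3 to 6 in B-CKO, and 3 to 5 at D2 than at D0 in CON, the lowest counts being those without replicate number 2. From D1 to D2, 0 to 3 rose in CON and 0 to 3 in B-CKO. On the higher side in B-CKO at D0 were 16 to 31 genes, and 7 to 22 had an unadjusted p under 0.05 at D1. At D0 0 to 1 higher (1 without B-CKO number 3) and 0 to 1 lower had one, the latter 1 without CON number 3 or without number 3 of both. The difference of Hsph1 at D0 ran from -0.34 (without CON number 3) to 1.13 and was also negative without B-CKO number 2 (-0.32). That of Hspa1a ran from -0.77 to 0.053, the latter without B-CKO number 1. The D0 to D1 change in CON of Bag3 ran from -0.38 to 0.019, the latter without CON D0 number 3. That of Dnajb6 ran from -0.032 (without CON D0 number 1) to 0.19, was -0.024 without number 1, and was -0.10 after rescaling to TPM. The cause of these shifts was not tested. Hspa1a, Hspa1b, Bag2, Bag3 and Hsf2 lay at a few FPKM or less in some groups, and with the reads per library unknown the precision this gives was not measured.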

Other observations

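RNA of actin and tubulin genes, whose proteins CCT folds, rose beside that of CCT. Of 11 actin and tubulin genes, 9 were higher at D1 than at D0 in CON and 0 lower (limma, adjusted p under 0.05), beside 26.7% and 30.7% of all genes, with a median of 1.20 on the log2 scale beside -0.02 over all genes. Tuba1b, an alpha-tubulin, was at 181, 172 and 153 FPKM at D0 and 1217, 1193 and 1259 FPKM at D1, a change of 2.86. The beta-tubulins Tubb5 and Tubb4b rose by 2.67 and 2.24. From D1 to D2 3 of the 11 were higher and 3 lower, beside 20.1% and 24.8% of all genes.

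Of 8 cofactors of CCT and of tubulin folding, 6 were higher at D1 and 0 lower, against the same shares of all genes, led by the tubulin cofactors Tbcb (1.23) and Tbcd (1.08) and by Pdcl3 (1.01), a phosducin-like partner of CCT. From D1 to D2 5 of the 8 fell and 0 rose, beside 24.8% lower and 20.1% higher among all genes. Of 10 other mitochondrial chaperones and proteases, 7 were higher at D1 and 0 lower, again beside 26.7% and 30.7% of all genes, led on the log2(FPKM + 1) scale by Dnajc15 (1.65), Clpp (1.25) and Dnajc19 (1.18), of which Clpp is a matrix protease. Between genotypes at D1, 0 genes of these lists were called in limma, and 4 of the 11 client genes, 2 of the 8 cofactors and 1 of the 10 mitochondrial genes were higher at an unadjusted p under 0.05, beside 6.79% of all genes, which 1 of 10 is close to.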
